A study of Mus musculus with 8 samples.

Results

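*Nnt*, the gene of the mitochondrial nicotinamide nucleotide transhydrogenase, and 9 genes of mitochondrial NADPH supply and peroxide defence are described in the lumbar spinal cord of 8 male mice with the *SOD1*G93A transgene, a model of amyotrophic lateral sclerosis. The 10 genes (*Nnt*, *Idh2*, *Me3*, *Gsr*, *Gpx1*, *Txn2*, *Txnrd2*, *Prdx3*, *Prdx5* and *Sod2*) were taken by symbol from the 55291 rows of the count table. *Nnt* was chosen by its levels in these same mice, and the others because they work with it, with the genotype contrast already known. The differences between genotypes in the 10 genes are therefore given as a description. Counts of calls among them are set beside those over all genes, and nothing rests on them. All 10 genes passed the filter on low counts and are among the 19470 genes tested.

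The mice fall into 2 genotypes of 4 mice each. Mice E1776, E5231, E5248, E5568 are the *Ager*-deleted group, with both copies of *Ager* floxed (*Ager*fl/fl). Mice E5386, E5642, E6578, E6732 are the Cre-expressing controls, with *Ager* intact (*Ager*+/+). All 8 carried the *SOD1*G93A transgene and, from *Cx3cr1*Cre/+, 1 copy of a Cre recombinase that tamoxifen switches on, and all 8 received tamoxifen, placed by the labels at 12 weeks of age. The strain is given as C57BL/6, built by intercrossing C57BL/6J mice with congenic *Cx3cr1*, *Ager*-floxed and *SOD1*G93A lines. The methods of the study describe all mice as bred in, or backcrossed to, C57BL/6J, and substrain alleles of single mice were not read here. Every mouse was 120 days old by its label, whereas the text of the study places the tissue at end-stage. The study asked how loss of *Ager*, the gene of the receptor RAGE, from microglia alters expression in the diseased cord. The deletion was driven in cells that express *Cx3cr1*. The study treats these as microglia, while stating that *Cx3cr1* is expressed by monocytes too. The RNA came from whole cord, and the genes described here are not particular to microglia. In such bulk RNA, fewer cells of a type and less RNA per cell cannot be told apart.

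Mitochondria detoxify hydrogen peroxide with a relay of thiol enzymes whose reducing power comes from NADPH. In the matrix that NADPH is made by the transhydrogenase in the inner membrane, which uses the proton gradient to move hydride from NADH to NADP+, and by isocitrate dehydrogenase 2 and the mitochondrial malic enzyme. Glutathione reductase and thioredoxin reductase 2 pass it on to glutathione peroxidase and the peroxiredoxins, and superoxide dismutase 2 supplies the peroxide. Inbred C57BL/6J mice carry a deletion of several exons of *Nnt* and make no functional transhydrogenase, whereas other C57BL/6 substrains have the intact gene. The mouse reference genome mm10, to which the authors aligned the reads, is that of C57BL/6J.

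*Nnt* lies on the reverse strand of chromosome 13 at chr13:119335448-119408997 (GRCm38, the assembly that mm10 names; GENCODE M21). Its longest annotated coding transcript there, Nnt-202, has 17 exons and 3464 bases. The 60 bases around the junction of its exons 7 and 8, which flank the place of the deletion, are shown because they are the shortened mRNA as the reference holds it. Exon 7 occupies chr13:119381676-119381863 and exon 8 chr13:119374629-119374774, with an intron of 6901 bases between them, and the junction follows base 1111 of the transcript. The capitals mark the first 30 bases of exon 8:

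Nnt-202 exon 7 to exon 8: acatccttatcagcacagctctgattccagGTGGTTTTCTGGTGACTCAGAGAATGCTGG

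Reads from the exons between these positions in the intact gene have no place in this reference and could not be counted. GENCODE M21 also holds a second, overlapping gene ID named *Nnt*, and which ID the single *Nnt* row sums, and whether reads shared by both were counted, is not known. The deposited values are sums over the whole gene, so they do not show which junction the reads of a mouse crossed. Which *Nnt* allele each mouse carried was not tested.

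Levels are given as CPM, the counts of a gene scaled to library size by TMM (trimmed mean of M values), and always for the controls in the order E5386, E5642, E6578, E6732 and for the *Ager*-deleted group in the order E1776, E5231, E5248, E5568. *Nnt* was at 24.2, 21.4, 20.7 and 21.1 CPM in the controls, while the *Ager*-deleted mice had 37.0, 34.2, 36.7 and 22.2 CPM. Thus 3 of the 4 *Ager*-deleted mice lay above every control, and the fourth, E5568, lay inside the range of the controls, so that the genotypes overlapped. The *Ager*-deleted mean was 32.5 ± 7.0 CPM (SD, n = 4) and the control mean 21.8 ± 1.59 CPM (SD, n = 4), and the log2 fold change was 0.57 (standard error 0.15; 1.49-fold). Without E5568 the log2 fold change was 0.72, and with any other mouse left out it was between 0.51 and 0.62.

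These levels rest on 636 to 1456 counts per mouse. The 95% counting interval (exact Clopper-Pearson, counting error only) reached down to 32.4 CPM in E5231, the lowest of the 3 high mice, and up to 25.8 CPM in E5386, the highest of the other 5. The interval of E5568 ran from 20.7 to 23.7 CPM. The intervals of the 3 high mice did not meet those of the other 5 mice. These intervals leave out variation between mice. *Nnt* was also chosen by these levels, so their separation restates that choice and adds no evidence.

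**Figure D1:**
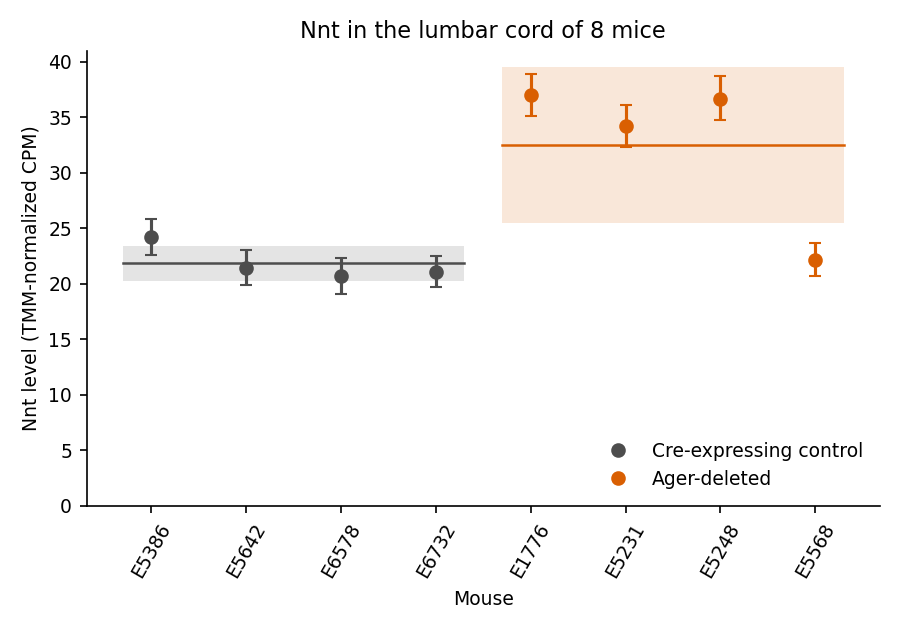
*Nnt* level in TMM-normalized CPM (vertical axis) in each of the 8 mice (horizontal axis); points are mice, bars are 95% counting intervals, and the line and band of each genotype are its mean and SD (n = 4). Mice E1776, E5231 and E5248 sit between 34.2 and 37.0 CPM, while E5568 sits at 22.2 CPM among the controls, which span 20.7 to 24.2 CPM.

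Ordered by level, the 8 mice fell on either side of 1 wide gap in *Nnt*. On the log2 CPM scale (prior count 2), neighbouring mice were at most 0.50 apart (1.41-fold), between E5386 below and E5231 above, which was 59.7% of the whole range of 0.84 (1.79-fold). The 5 mice below the gap spanned 20.7 to 24.2 CPM and the 3 above it spanned 34.2 to 37.0 CPM. On untransformed CPM the gap was 10.03 CPM of a range of 16.3 CPM, or 61.5%. Among the 11059 tested genes with a mean of at least 10 CPM, 28, *Nnt* included, had a gap share and a range at least as large, and among all 19470 tested genes 232 (1.19%) did. The SD of *Nnt* over the 8 mice was 0.38 on the log2 scale, against a median of 0.12 over those 11059 genes. The sets on either side of the gap were made from these values and were not compared by a test. *Nnt* was chosen by its levels in these mice, so its place by gap, range and SD restates that choice and adds no evidence.

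The exact test of edgeR called 0 of the 10 genes at an adjusted p of 0.05, as against 0.0719% of all genes tested, and 1 (*Nnt*) had an unadjusted p-value under 0.05. The count was also 0 in edgeR's quasi-likelihood test, DESeq2, limma-voom and the exact test run on tagwise dispersions. Leaving out E5568 was the only omission of 1 mouse under which 1 of the 10 genes, *Nnt*, passed the threshold. The mice of the genotypes overlapped for all 10 genes, whereas they did not overlap for 3.88% of the genes tested. Since the genes were selected with this contrast in view, nothing is read from these counts. The median log2 fold change was 0.028 over the 10 genes and 0.0069 over all genes tested.

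Compared per kilobase of annotated exon, the mean levels over the 8 mice ran from 88.4 CPM per kb for *Gpx1* and 70.1 for *Prdx5*, through 46.9 for *Prdx3*, 26.6 for *Idh2*, 19.1 for *Txn2*, 13.4 for *Sod2* and 11.5 for *Gsr*, to 3.86 for *Nnt*, 2.86 for *Txnrd2* and 1.90 CPM per kb for *Me3*. The peroxidases thus stood highest, and *Nnt* stood eighth of the 10. With the length of the longest coding transcript in place of all exons, *Txnrd2* and *Me3* changed places (4.37 and 6.21 CPM per kb), and *Nnt* was at 7.85 CPM per kb. Lengths are those of GENCODE M21, an earlier release than the one counted on, and the value for *Nnt* carries the doubt about its gene ID.

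Of the other sources of mitochondrial NADPH, *Idh2* (chr7:80094846-80115392, reverse strand) codes for the isocitrate dehydrogenase of the matrix. It was at 82.5, 83.6, 70.4 and 57.04 CPM in the controls, while the *Ager*-deleted mice had 62.7, 71.6, 55.3 and 68.4 CPM. Its 2 highest mice were the controls E5386 and E5642, and the other 2 controls lay within the range of the *Ager*-deleted mice. The log2 fold change was −0.19 (standard error 0.12), the lowest of the 10 genes, and without those 2 controls it was 0.012. Without the control E6732 it was −0.29, and without the *Ager*-deleted mouse E5248 it was −0.12. The same 2 controls held summed levels of 1056 and 1554 CPM of 16 skeletal muscle markers, against 19.3 to 35.6 CPM in the other 6 mice. *Idh2* is abundant in muscle, and the part of muscle RNA in these values was not tested.

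**Figure D2:**
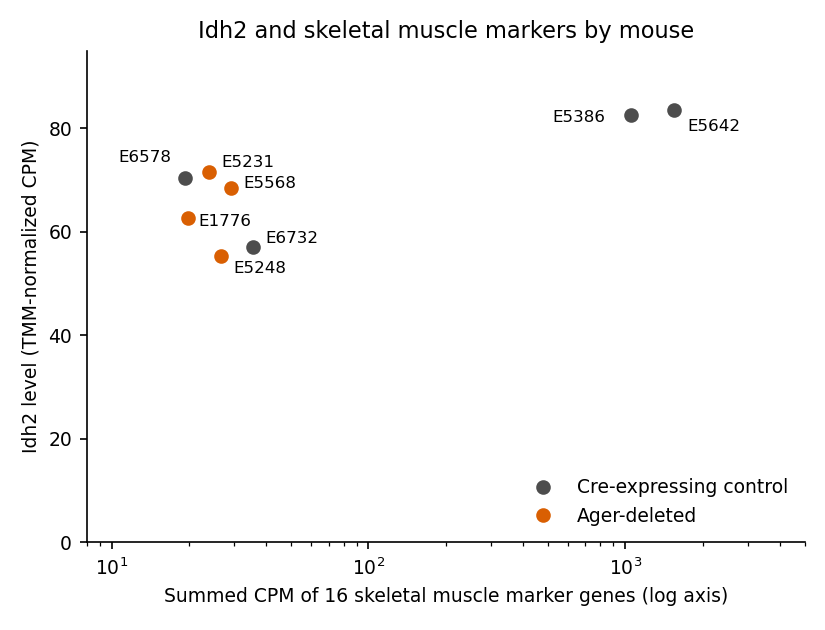
*Idh2* level in TMM-normalized CPM (vertical axis) against the summed CPM of 16 skeletal muscle marker genes (horizontal log axis), 1 point per mouse. The controls E5386 and E5642 stand apart to the right at 1056 and 1554 CPM of muscle markers and hold the highest *Idh2*, 82.5 and 83.6 CPM.

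*Me3* (chr7:89632392-89854359, forward strand) codes for the mitochondrial NADP-dependent malic enzyme. It was at 27.5, 26.8, 25.5 and 28.3 CPM in the controls, while the *Ager*-deleted mice had 27.8, 28.6, 27.4 and 30.8 CPM. The groups overlapped, with 2 *Ager*-deleted mice above every control. The log2 fold change of 0.08 (standard error 0.063) was small beside the 1.21-fold spread between the lowest and the highest mouse.

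The glutathione arm is served by *Gsr* (chr8:33652523-33698163, forward strand), the reductase that restores glutathione with NADPH, and *Gpx1* (chr9:108338903-108340343, forward strand), the peroxidase that consumes it. Both proteins work in the cytosol as well as in mitochondria. *Gsr* was at 31.9, 32.2, 29.5 and 32.8 CPM in the controls, while the *Ager*-deleted mice had 30.3, 34.1, 29.2 and 33.1 CPM. The genotype means of *Gsr* were 31.6 CPM in both (SD 1.43 in controls and 2.29 in *Ager*-deleted mice, n = 4 each), the least difference among the 10 genes. *Gpx1* was at 124, 128, 133 and 122 CPM in the controls, while the *Ager*-deleted mice had 118, 153, 99.9 and 142 CPM. The *Ager*-deleted mice thus held both the 2 lowest and the 2 highest values of *Gpx1*. Their mean was 128 ± 23.9 CPM (SD, n = 4) against 127 ± 5.17 CPM (SD, n = 4) in the controls, and the log2 fold change was 0.02 (standard error 0.12).

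The thioredoxin arm is served by *Txn2* (chr15:77915047-77929006, reverse strand), the mitochondrial thioredoxin, and *Txnrd2* (chr16:18426384-18479073, forward strand), the selenoenzyme that reduces it with NADPH. *Txn2* was at 81.6, 77.0, 83.9 and 75.5 CPM in the controls, while the *Ager*-deleted mice had 80.2, 88.3, 74.0 and 84.1 CPM. Again the *Ager*-deleted mice spanned the controls, with E5248 lowest and E5231 highest, and the log2 fold change was 0.04 (standard error 0.067). *Txnrd2* was the least abundant of the 10 genes in CPM, at 13.8, 11.7, 12.2 and 11.4 CPM in the controls and 12.5, 14.0, 11.9 and 12.98 CPM in the *Ager*-deleted mice, from 375 to 521 counts. Only E5231 lay above every control (log2 fold change 0.07, standard error 0.093).

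The peroxiredoxins reduced by this arm are *Prdx3* (chr19:60864051-60874556, reverse strand), found in mitochondria, and *Prdx5* (chr19:6906697-6910106, reverse strand), found in mitochondria, peroxisomes and the cytosol. *Prdx3* was at 72.1, 72.1, 72.4 and 67.3 CPM in the controls, while the *Ager*-deleted mice had 62.0, 69.1, 69.5 and 69.8 CPM. For *Prdx3*, 3 controls lay above every *Ager*-deleted mouse, but E6732 lay below 3 of them (log2 fold change −0.07, standard error 0.059). *Prdx5* was at 140, 149, 152 and 139 CPM in the controls, while the *Ager*-deleted mice had 141, 170, 142 and 166 CPM. The *Prdx5* levels of E5231 and E5568 were above every control, and those of E1776 and E5248 were within the controls' range (log2 fold change 0.09, standard error 0.075). *Prdx5* overlaps *Trmt112* on the opposite strand, and the strand setting of the counting is not given in the sources used here, so reads of the shared stretch may belong to either gene.

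*Sod2* (chr17:13006846-13040063, forward strand), the manganese superoxide dismutase of the matrix, was at 133, 129, 145 and 139 CPM in the controls, while the *Ager*-deleted mice had 131, 117, 144 and 138 CPM. E5231 was lowest, and the other 3 *Ager*-deleted mice lay among the controls. The log2 fold change of *Sod2* was −0.04 (standard error 0.072).

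**Figure D3:**
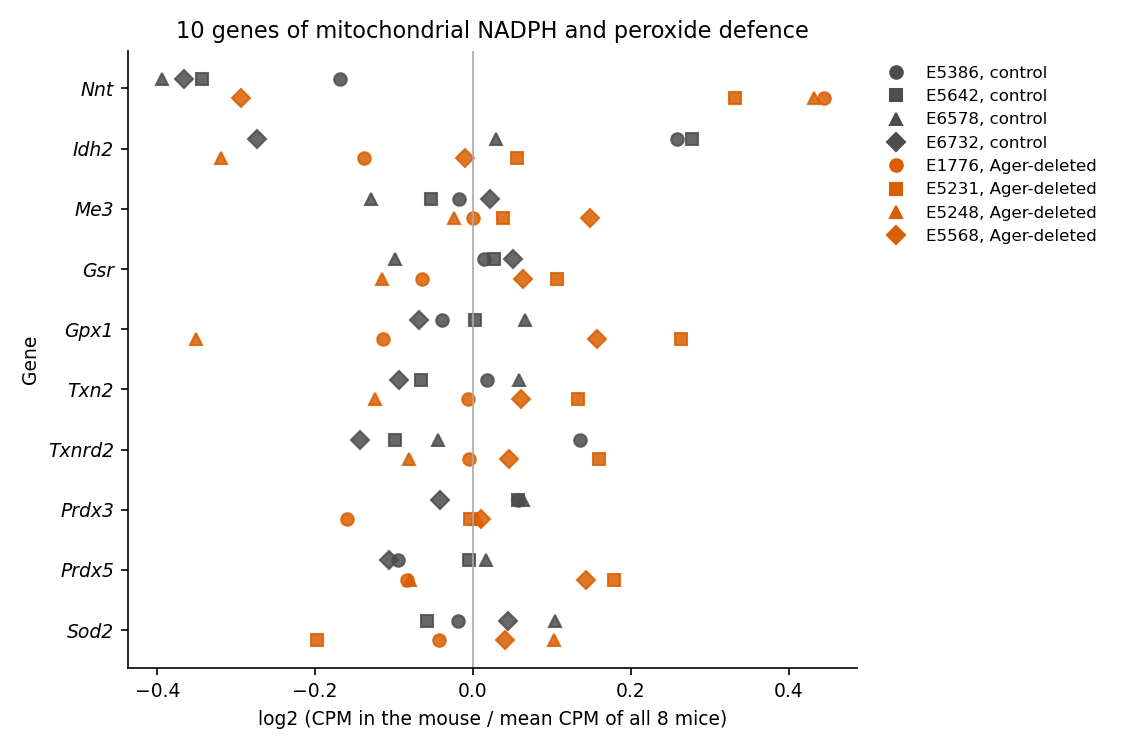
Level of each of the 10 genes (vertical axis) in each mouse as log2 of its CPM over the mean CPM of all 8 mice (horizontal axis); each point is 1 mouse. *Nnt* has 3 *Ager*-deleted mice far to the right of the other 5 mice, *Idh2* has the controls E5386 and E5642 to the right, and in *Gpx1*, *Txn2*, *Prdx5*, *Gsr* and *Txnrd2* mouse E5231 is the highest.

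The 10 genes shared no single order of the mice. Over the 8 mice (Pearson's r of log2 CPM, a description over libraries that share a total and a cell makeup), *Nnt* had r of −0.58 with *Prdx3*, −0.40 with *Idh2*, −0.33 with *Gpx1*, −0.33 with *Sod2*, −0.25 with *Gsr*, −0.02 with *Prdx5*, 0.11 with *Me3* and 0.28 with *Txnrd2*, and its r with *Txn2* was nearer to 0 than any of these. *Gpx1* and *Txn2* had the highest r of any pair, 0.87, whereas the highest r of *Sod2* with any other of the 10 genes was 0.17, below the 0.28 of *Nnt*. E5231 held the highest level of *Gsr*, *Txnrd2*, *Prdx5*, *Gpx1* and *Txn2*, and E5248 held the lowest level of *Idh2*, *Gsr*, *Gpx1* and *Txn2*. Yet both were among the 3 mice with high *Nnt*. The summed level of 6 microglia markers was 677 CPM in E5231, 463 CPM in E5248, 677 CPM in E1776, 497 CPM in E5568 and 548 to 626 CPM in the controls. Most of that sum was *Csf1r* (297 to 444 CPM), whereas *P2ry12* was lowest in E1776 (24.2 CPM). The part of microglia in the levels of the 10 genes was not tested.

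Total counts per mouse were 31148047 to 40324897, at which 3 counts are 0.0729 to 0.0975 CPM. *Ager*, the targeted gene, was at 0.889 to 1.51 CPM in *Ager*-deleted mice and 1.53 to 2.41 CPM in controls. The genotypes did not overlap, as for 3.88% of all genes tested. The closest mice, the *Ager*-deleted E5231 and the control E5386, both had 56 counts. The adjusted p of *Ager* was 0.252 in edgeR's exact test, short of the threshold. Markers of neurons, astrocytes, oligodendrocytes and microglia and the *Hox* genes of the lumbar segments were present in every library. Apart from the 2 controls with muscle markers, adipose markers summed to 141 CPM in the control E5386 (0.889 to 6.95 CPM elsewhere), liver markers to 591 CPM in the control E6732 (1.31 to 2.58 CPM elsewhere) and Schwann cell markers to 3.47 CPM in E5386 (200.3 to 744 CPM elsewhere). For *Nnt*, the log2 fold change without the controls E5386 and E5642 was 0.63. The 3 high mice and E5568 had no raised muscle, adipose or liver markers.

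Other genes of the mitochondrial NADPH and thiol system were read in the same fit. Of 19 such genes, all tested, 0 passed the threshold in edgeR's exact test or quasi-likelihood test. In the exact test, 0.0719% of all genes tested passed it. At an unadjusted p under 0.05 in that test, 2 were lower and 0 higher in *Ager*-deleted mice. The share of all genes under that unadjusted p was not counted. Nothing is therefore read from such counts, here or for the gene lists and neighbours below. The median log2 fold change of the 19 genes was 0.017. *Nadk2* codes for the mitochondrial NAD kinase that supplies NADP. It averaged 105 ± 8.27 CPM (SD, n = 4) over controls and 89.0 ± 5.27 CPM (SD, n = 4) over *Ager*-deleted mice. That is a log2 fold change of −0.24, with p adjusted to 0.675 by edgeR's exact test. The highest control was E5642 at 118 CPM. Of the 19 genes, only *Nadk2* had genotypes that did not overlap, as held for 3.88% of all genes tested. Nothing is read from that separation. *Mgst1*, a membrane-bound glutathione transferase, had a log2 fold change of −0.23 (edgeR's exact test, adjusted p = 1). The next by p were *Shmt2*, the mitochondrial serine hydroxymethyltransferase, at 0.14, and *Glrx5*, a glutaredoxin of iron-sulfur cluster assembly, at 0.12.

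**Figure D4:**
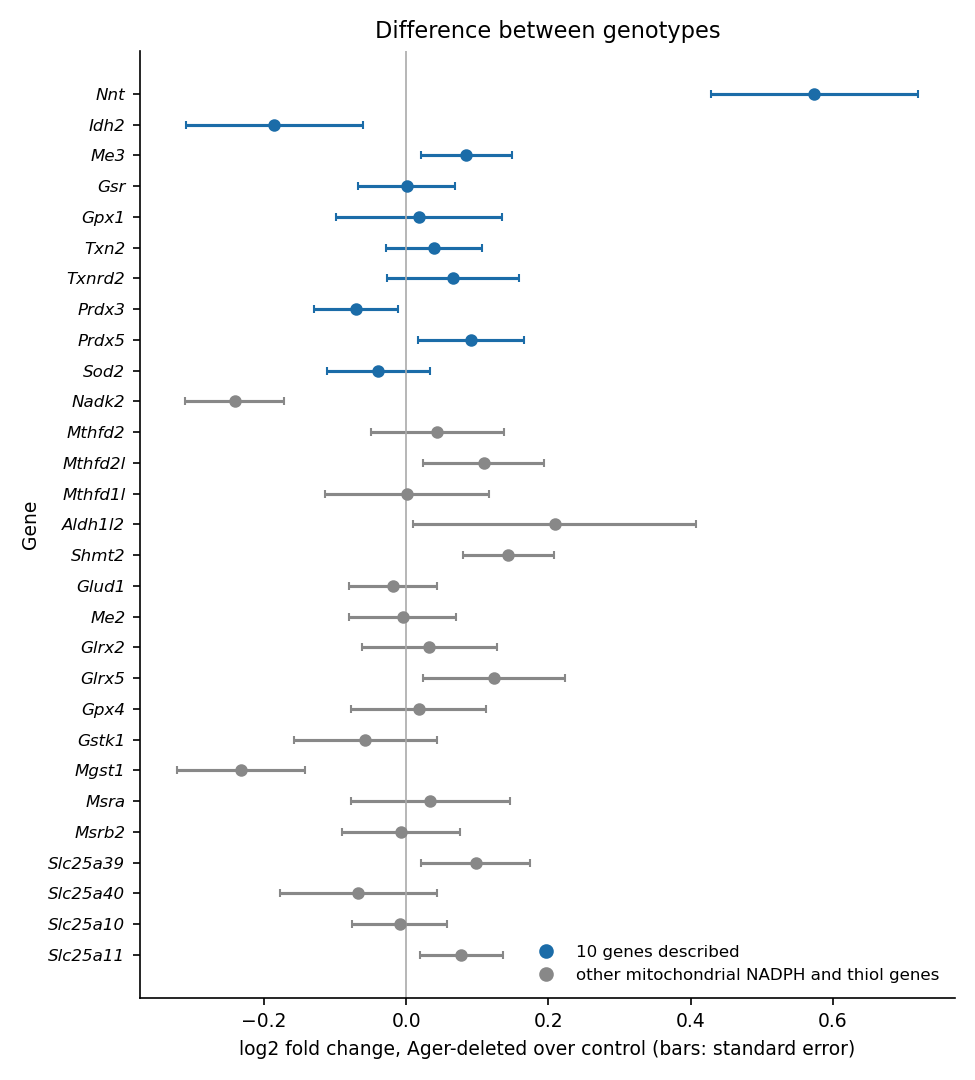
Log2 fold change of *Ager*-deleted mice over Cre-expressing controls (horizontal axis, n = 4 per genotype) for the 10 genes described and 19 further genes of the mitochondrial NADPH and thiol system (vertical axis); bars are the standard error. *Nnt* stands at 0.57 and every other gene lies between −0.24 and 0.21.

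Among 27 counterparts outside the mitochondrion (cytosolic, peroxisomal, endoplasmic reticulum and secreted enzymes), 0 passed the threshold in either edgeR test, and 1 was lower and 0 higher at an unadjusted p under 0.05, with a median log2 fold change of 0.017. That gene was *Gpx3*, the secreted glutathione peroxidase, averaging 45.1 ± 10.6 CPM (SD, n = 4) over controls and 33.5 ± 4.70 CPM (SD, n = 4) over *Ager*-deleted mice (log2 fold change −0.43; edgeR's exact test, adjusted p = 0.954). Without the control E6732, which was at 29.4 CPM, *Gpx3* passed the threshold. *Gss* (0.15), *Gclm* (−0.11) and *Cat* (−0.10), for glutathione synthetase, the modifier subunit of glutamate-cysteine ligase and catalase, were next by p. Of 17 genes of mitochondrial content (respiratory chain, citric acid cycle, protein import, channels, carriers and mitochondrial DNA upkeep among them), 0 passed the threshold in either edgeR test and 0 had an unadjusted p under 0.05. Their median log2 fold change was 0.0028, and the 4 with the smallest p were *Polg* (0.10), *Slc25a4* (−0.08), *Mdh2* (0.06) and *Ndufs1* (−0.04).

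Since *Nnt* differs between C57BL/6 substrains, 9 other genes with known differences among these substrains, drawn from general knowledge, were read in the same mice. *Gabra2*, a GABA receptor subunit gene whose mRNA is lowered by an intronic deletion in C57BL/6J (chr5:70957597-71095849, reverse strand), was at 57.2, 57.7, 52.0 and 51.5 CPM in the controls. The *Ager*-deleted mice had 53.6, 140, 57.3 and 82.8 CPM. E5231 and E5568 were thus above every other mouse in *Gabra2*, and the other 2 *Ager*-deleted mice were within the controls' range. Its largest gap was 0.76 log2 units, between E5568 and E5231, or 52.5% of its range. The log2 fold change of *Gabra2* was 0.61 with a standard error of 0.26 (edgeR's exact test, adjusted p = 0.983).

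*Wdfy1*, which codes for an endosomal protein (chr1:79702262-79776143, reverse strand), was at 29.4, 52.1, 49.7 and 25.7 CPM in the controls, while the *Ager*-deleted mice had 68.0, 24.7, 47.6 and 25.9 CPM. Its largest gap of 0.69 log2 units (47.5% of its range) had 4 mice on either side, 2 of each genotype, and the log2 fold change was 0.08 with a standard error of 0.34 (edgeR's exact test, adjusted p = 1). The mice were divided differently by each of the 3 genes. E1776 and E5248 were high in both *Nnt* and *Wdfy1*, E5231 was high in *Nnt* and *Gabra2* but lowest in *Wdfy1*, and E5568 was raised in *Gabra2* only, while the controls E5642 and E6578 were high in *Wdfy1* only.

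**Figure D5:**
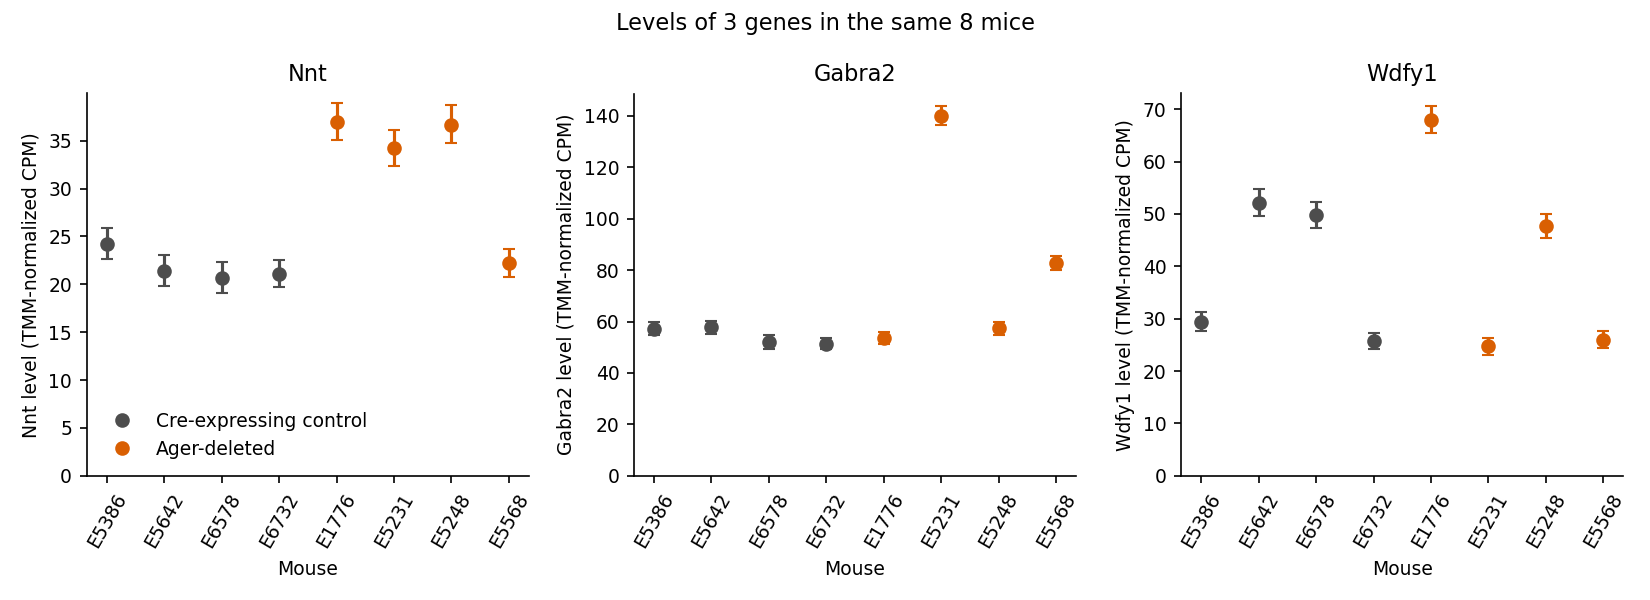
Levels of *Nnt*, *Gabra2* and *Wdfy1* in TMM-normalized CPM (vertical axes) in the same 8 mice (horizontal axes); bars are 95% counting intervals. *Nnt* is high in E1776, E5231 and E5248, *Gabra2* is highest in E5231 (140 CPM) and next in E5568 (82.8 CPM), and *Wdfy1* is high in 4 mice, 2 of each genotype.

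The remaining substrain genes that were tested spread less than *Gabra2* and *Wdfy1*. *Ide*, for the insulin-degrading enzyme, and its neighbour *Fgfbp3* lie in a segment whose copy number varies within C57BL/6J stocks. *Ide* was at 158, 149, 107 and 153 CPM in the controls, while the *Ager*-deleted mice had 120, 142, 116 and 145 CPM. *Fgfbp3* was at 6.62, 5.77, 4.13 and 6.91 CPM in the controls and was 5.13, 6.60, 4.88 and 5.76 CPM in *Ager*-deleted mice. E6578, E1776 and E5248 were the 3 lowest mice in both. *Cyfip2* and *Crb1*, which differ between substrains by coding variants rather than by level, ranged over 506 to 643 CPM and 1.02 to 1.85 CPM. *Mmrn1*, *Entpd4* and *Entpd4b* did not pass the filter on low counts, and *Entpd4* had 0 counts in every mouse. *Entpd4* and *Entpd4b* are annotated on chromosome 14 with the same exon length, 8074 bases. Reads that fit both places may not have been counted, which was not tested. Their counts therefore do not show that these genes are silent. Of the 6 substrain genes tested besides *Nnt*, 0 passed the threshold in either edgeR test, and 1, *Gabra2*, had an unadjusted p under 0.05.

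Around *Nnt*, 61 annotated genes within 2 Mb had a row in the table and 15 were tested, of which 0 passed the threshold in edgeR's exact test and 0 had an unadjusted p under 0.05. *Paip1*, a regulator of translation whose nearer end lies 19604 bases from *Nnt*, was at 72.6, 75.9, 68.1 and 73.4 CPM in the controls, while the *Ager*-deleted mice had 58.2, 58.5, 67.6 and 72.7 CPM. E1776, E5231 and E5248, the mice high in *Nnt*, were the lowest in *Paip1* (r of −0.80 with *Nnt*, n = 8). Of these, E5248 at 67.6 CPM lay just below the control E6578 at 68.1 CPM. E5568 lay among the controls. *4833420G17Rik*, 53771 bases away, was likewise lowest in E1776, E5231 and E5248, at 30.1, 31.8 and 34.5 CPM. The other 5 mice were at 34.8 to 38.0 CPM, so E5248 was again close to them. The cause was not tested. The log2 fold changes were −0.17 for *Paip1* and −0.14 for *4833420G17Rik*, and those of the next 4 tested genes were 0.14 (*Gm9752*), −0.03 (*3110070M22Rik*), −0.30 (*Tmem267*) and −0.06 (*Ccl28*), and edgeR's exact test gave all 6 an adjusted p of 1.

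The genes whose levels were most like those of *Nnt* over the 8 mice, among 16080 genes with a mean of at least 1 CPM, were *Gemin8* (r = 0.97), *Bach2os* (0.96), *Rexo4* (0.95), *Adcy8* (0.95) and *Pdia6* (0.94). They were picked as the highest of all these r values over only 8 mice, a choice that itself gives high values. *Gemin8*, which codes for a subunit of the SMN complex, was at 6.37 to 6.76 CPM in the controls, while the *Ager*-deleted mice had 7.75, 7.36, 7.36 and 6.69 CPM. Its highest level was 1.22-fold its lowest, against 1.79-fold for *Nnt*. None of the 5 was in the top 5 by Spearman's rho, and none of the other 9 genes of the mitochondrial set was among them.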

How the data were processed

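Poly(A) RNA of lumbar spinal cord from 8 male mice was sequenced with a stranded kit. Per the labels, the samples are 8 separate mice, grouped by genotype. The authors deposited raw counts per gene and a table of log2 values, which are TMM-normalized log2 CPM. The submitters' processing notes name Trimmomatic 0.36, STAR 2.7.3a, mm10, Subread 1.6.3 (featureCounts) and edgeR 3.26.8. The strand setting of the counting is not given in the sources used here, so reads in stretches that genes share on opposite strands may belong to either. Some items are not reported here. Both tables were matched to mice by ID, with 0 columns left unused. The deposited log2 values were recomputed from the counts to within 4.78e-06 and served only for that check. No pair of libraries agreed within sampling noise (chi-square per degree of freedom 16.2 to 122).

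Genes were kept by filterByExpr (minimum count 10), normalized by TMM and compared with the exact test of edgeR 4.0.16 under R 4.3.3, all 8 mice and no covariate. TMM, the exact test and the threshold follow the study's methods. The filter and the dispersions (estimateDisp) were set here, and common plus tagwise estimates served as another setting (threshold, adjusted p 0.05, Benjamini-Hochberg over all genes tested). The study reported 78 differentially expressed genes, whereas the main fit here called 14, and common plus tagwise estimates called 78. Standard errors came from the quasi-likelihood fit, and gaps and r used log2 CPM with a prior count of 2. Alternatives used DESeq2 1.42.0 and limma 3.58.1 (voom), other normalizations and filters, and omitted mice. The tests were checked first on simulated counts, with changes larger than any difference described for the 10 genes. That check therefore does not cover differences of their size. Intervals and the floor of 3 counts cover counting error only. The 10 genes and all gene lists, written by hand, were chosen with earlier results of these data known. Named are the 10 genes, up to 4 genes per pathway list with the smallest p, all substrain genes, the 5 genes most like *Nnt* and the 6 nearest tested genes within 2 Mb. Positions and the printed sequence are from GENCODE M21 on GRCm38, an earlier release than the M25 the authors counted on, matched by symbol. M21 holds 2 overlapping gene IDs named *Nnt*, for which the deposited counts have a single row.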

Additional observations from a re-analysis of the deposited data

Results flagged for a closer look

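A mouse was singled out where its gap to the nearest of the other 3 mice of its genotype, divided by the range of the 4 on the log2 CPM scale, exceeded Dixon's critical value of 0.829. This was asked of 78 groups of 4 mice (the genes named in the text, in each genotype), and 8 passed. Chance alone passes about 1 in 20 groups, and the genes are not independent.

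*Nnt* in the *Ager*-deleted mouse E5568 had a ratio of 0.8475, at 22.2 CPM against 34.2 to 37.0 CPM in the other 3 *Ager*-deleted mice. *Nnt* was chosen for its discrete levels in these mice, so this ratio restates that choice and adds no evidence. *Prdx3* passed in both genotypes, with 0.932 for the control E6732 (67.3 CPM) and 0.9173 for the *Ager*-deleted mouse E1776 (62.0 CPM), each the lowest of its genotype. *Nadk2* was high in the control E5642 (0.897, 118 CPM), and *Gpx3* was low in the control E6732 (0.8525, 29.4 CPM), the library with liver markers. The substrain gene *Ide* was low in the control E6578 (0.8433, 107 CPM). *Bach2os*, picked for its likeness to *Nnt*, was low in the control E6578 (0.8918, 0.910 CPM, 28 counts) and in the *Ager*-deleted mouse E5568 (0.9294, 1.09 CPM, 42 counts), the latter following from that pick.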

How the results depend on the processing

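The *Nnt* difference kept its direction in every alternative run. Its log2 fold change ranged from 0.54 with limma-voom to 0.63 without the controls E5386 and E5642, and it stayed short of the threshold in all of these. Leaving out 1 mouse at a time gave 0.506 to 0.7195, and *Nnt* passed the threshold only without E5568 (0.7195), so the count of the 10 genes called ranged from 0 to 1, as did that of the pathway genes (1, *Gpx3*, without E6732). The count of all genes called, 14, was 5 with a minimum of 50 counts, 1 in edgeR's quasi-likelihood test, 1 in limma-voom, 78 with common and tagwise dispersions, 25 in DESeq2, 67 without E5386 and E5642, 6 with muscle and mitochondrially encoded genes removed, and 3 to 98 with each mouse left out. The largest *Nnt* gap was 0.4838 to 0.624 log2 units. Of the 5 genes most like *Nnt*, 0 remained with Spearman's rho and 4 with a mean of at least 5 CPM. The small differences of *Gsr*, *Gpx1*, *Idh2*, *Txn2* and *Sod2* changed sign under at least 1 alternative, by less than the spread between mice. The causes were not tested. No paired analysis was possible because the labels name mice by ID and mark no pairs across genotypes.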
